A study of Mus musculus with 12 samples.

Results

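MMT cells transfected with an siRNA against Erm were compared with untransfected MMT cells. MMT (ATCC CCL-51) is an established line from a mouse mammary tumour, and Erm is an older name of Etv5, a transcription factor that forms the PEA3 group of ETS factors with Etv4 (Pea3) and Etv1 (Er81). The 5 arrays compared, of 12 in all, were chosen by their titles: 3 of cells given the Erm siRNA (siErm) and 2 of untransfected cells, each array a biological replicate per the series' design text. The other groups were cells given a control siRNA (siCtrl, 3 arrays) or a Pea3 siRNA (siPea3, 4 arrays), which entered the same fit, so that their spread helped to set every p value, and which the siErm cells were also compared with. All groups are cultures of the 1 line, and no dose, time after transfection, reagent or siRNA sequence is given in the labels. An array of cells given the transfection reagent without siRNA is not among the samples, so the siRNA and its delivery cannot be told apart in this comparison.

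Each array gave 1 signal per probe on a linear scale. Between 12625 and 13836 of 33012 probes were detected on each of the 5 arrays, where detected means that the signal was at least 3 times its noise. Across probes, log2 signals of 2 siErm arrays correlated at r = 0.960 to 0.965. The untransfected pair correlated at 0.948, within the range of 0.933 to 0.956 found between untransfected and siErm arrays. Untransfected array 1 correlated with the siErm arrays at 0.933 to 0.945, below its value with untransfected array 2. Untransfected array 2 correlated with them at 0.951 to 0.956, so it was closer to each siErm array than to untransfected array 1. P values measure only the spread between these cultures, and the small number of arrays limits every precision. Of 12 luminal epithelial marker genes on the array, 6 were detected on all 5 arrays, among them the keratins Krt8 and Krt18. The other 6 were detected on none of the 5, among them Epcam and Cdh1. Marker genes of fibroblasts summed to 900 and 1976 in untransfected and 1308 to 2082 in siErm cells, those of macrophages to 51.0 and 73.3 against 48.7 to 68.4, and those of neutrophils to 9.63 and 14.95 against 21.5 to 24.1. The fibroblast sums came mostly from Dcn (868 and 1910 against 1283 to 2051). Of 7 tested fibroblast markers, 5 had a log2 change (siErm minus untransfected) below 0 and 2 above, with a median of -0.41. In siErm cells S100a8 gave the largest part of the neutrophil sums, at 10.7 to 18.7 against 6.56 and 1.75 in untransfected cells. Marker genes of T cells, B cells, endothelium, adipocytes and erythroid cells summed to signals of 3.25 to 25.6 per list on these arrays, while the luminal markers summed to 742.9 to 1884. In RNA from whole cultures, fewer cells of a type and less RNA per cell cannot be told apart.

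Mammalian cells read double-stranded RNA as a sign of virus. Toll-like receptors in endosomes and helicases of the RIG-I family in the cytosol sense it and activate the transcription factors IRF3 and NF-kB, which switch on interferon beta together with chemokines and cytokines. Secreted interferon then acts through its receptor, JAK kinases and STAT factors on the interferon-stimulated response element (ISRE) of many genes, whose products block viral replication and present antigen. Short interfering RNAs are themselves double-stranded, and some can be read in this way as well as guiding the cleavage of a matching mRNA.

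The promoters of 4 genes that were higher in siErm cells are shown because they carry the sites through which this response is known to run. They are RefSeq windows of the mouse build GRCm38.p6, from 250 bases before to 50 bases after the start of transcription, read 5′ to 3′ on the strand of the gene. Capitals mark a match to the ISRE core, which is GAAA followed by any 2 bases and then GAAA again, or to the NF-kB site, which is GGG followed by any 3 bases and then TTCC. Each was searched on both strands.
Ifnb1, minus strand, chr4:88522745-88523044, NF-kB site in capitals: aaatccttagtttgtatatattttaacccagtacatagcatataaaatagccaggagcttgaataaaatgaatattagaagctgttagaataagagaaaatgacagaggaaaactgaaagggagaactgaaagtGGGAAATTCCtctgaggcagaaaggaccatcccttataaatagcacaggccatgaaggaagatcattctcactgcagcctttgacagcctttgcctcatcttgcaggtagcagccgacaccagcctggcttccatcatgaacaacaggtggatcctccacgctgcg
Ifna4, plus strand, chr4:88841566-88841865, ISRE matches in capitals: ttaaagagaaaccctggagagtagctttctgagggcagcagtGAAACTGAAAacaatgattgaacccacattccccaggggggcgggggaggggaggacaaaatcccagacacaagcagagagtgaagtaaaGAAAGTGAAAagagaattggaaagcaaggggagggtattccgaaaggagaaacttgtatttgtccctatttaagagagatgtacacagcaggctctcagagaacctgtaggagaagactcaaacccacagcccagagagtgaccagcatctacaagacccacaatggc
Cxcl10, minus strand, chr5:92348840-92349139, 1 ISRE match and 2 NF-kB matches in capitals: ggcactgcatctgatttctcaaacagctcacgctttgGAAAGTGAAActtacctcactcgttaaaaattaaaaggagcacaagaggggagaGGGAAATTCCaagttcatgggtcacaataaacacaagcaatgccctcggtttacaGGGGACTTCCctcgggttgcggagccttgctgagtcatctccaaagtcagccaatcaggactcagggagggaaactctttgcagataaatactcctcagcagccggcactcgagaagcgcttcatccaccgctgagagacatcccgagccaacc
Igtp, plus strand, chr11:58199306-58199605, ISRE match in capitals: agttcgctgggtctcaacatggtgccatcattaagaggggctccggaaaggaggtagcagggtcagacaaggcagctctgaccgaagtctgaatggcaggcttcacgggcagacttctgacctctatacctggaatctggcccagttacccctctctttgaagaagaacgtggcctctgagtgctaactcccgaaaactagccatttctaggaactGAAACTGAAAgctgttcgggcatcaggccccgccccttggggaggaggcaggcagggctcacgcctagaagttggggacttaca
Such a window was found for 60 of the 77 genes with a symbol that were called higher and for 6 of the 7 called lower. The ISRE letters stood in 11 of the 60 windows (18.3%), those of Ifna4, Ifna2, Ifna12, Tgtp1, Tmem140, Ctss, Gbp2, Serpinb9, Cxcl10, Oas1c and Igtp. They stood in 3.99% of the windows of all 27025 genes and in 3.81% of 7219 genes with a tested probe. Ifna4, Ifna2 and Ifna12 belong to a cluster of near-identical genes, so their matches are not independent of each other. The NF-kB letters stood in 6 of the 60 (10.0%), against 6.31% and 7.26%, namely Ifnb1, Il6, Tlr2, Gbp2, Ifi209 and Cxcl10. The ETS letters ACCGGAAG stood in 0 of the 60 and in 5.24% of the tested genes. The ISRE and NF-kB letters stood in 0 of the 6 windows of genes called lower. These matches describe the letters in the window and do not show that a factor bound there.

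Most called genes were higher in siErm cells than in untransfected cells. Counted within the gene lists used below, they included 4 interferons, 6 chemokines, 4 interferon-inducible GTPases and 3 genes of epidermal differentiation. Of 16724 tested probes, 131 (0.783%) were called at an adjusted p under 0.05 by limma with Benjamini-Hochberg adjustment. Of these, 117 (0.7%) were higher and 14 (0.0837%) lower in siErm cells, and an unadjusted p under 0.05 was reached by 1712 probes (10.2%), 907 higher and 805 lower. With only both compared groups in the fit, 16 probes were called (16 higher, 0 lower), and without the siCtrl arrays 82 were (79 higher, 3 lower), so most calls rest on the spread estimated with the other siRNA groups. The smallest called change was 2.59-fold, 102 probes changed over 4-fold and 19 over 16-fold. The arrays of both groups did not overlap for any of the 131 called probes, nor for 4575 (27.4%) of all tested probes, of which 1932 (11.6%) were higher and 2643 (15.8%) lower in siErm cells. The median log2 change over all tested probes was -0.09.

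Among the 117 probes called higher, 33 were not detected on any untransfected array. Of the called probes, 84 carried 1 gene symbol (77 higher, 7 lower) and 47 none (40 higher, 7 lower). The largest rise of all was on a probe without a symbol (ID 416412), with signals of 5.96 and 3.18 on the untransfected arrays and 264, 326 and 338 on the siErm arrays (log2 change 6.14 ± 0.65 SE, adjusted p = 0.00149, limma). It was chosen after its values were seen, as were Rsad2, Ifit1, Ccl2, Cxcl1, Ccrl2, Serpinb9, Cebpd, Ido1, Il18bp, Lce1g, Oas1c and Gbp8 in what follows. The same holds for Tlr2, Gadd45b, Cfb and Pdk4.

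**Figure D1:**
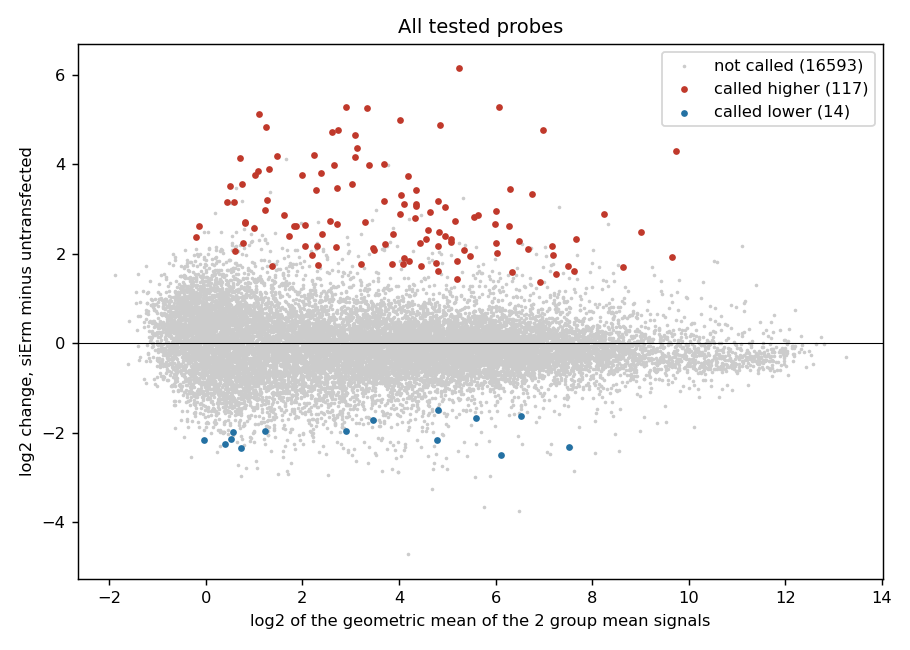
Each point is 1 of 16724 tested probes, with the log2 change (siErm minus untransfected) on the vertical axis and the log2 of the geometric mean of both group means on the horizontal axis. The 117 probes called higher are red and the 14 called lower are blue, and the called rises reach 6.14 while the called falls end at -2.50.

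How many probes were called turned on single arrays. Leaving out any 1 siErm array gave 61 to 63 calls. Without untransfected array 1 there were 85 calls (83 higher, 2 lower), and without untransfected array 2 there were 297 (154 higher, 143 lower). No called probe changed sign in any of these 5 fits. This was fixed in advance, because the siErm and untransfected arrays did not overlap for any called probe. The call was kept in all 5 for 42 probes, 41 higher and 1 lower, of which 25 had a symbol. Genes whose calls were kept throughout are named as such in what follows.

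**Figure D2:**
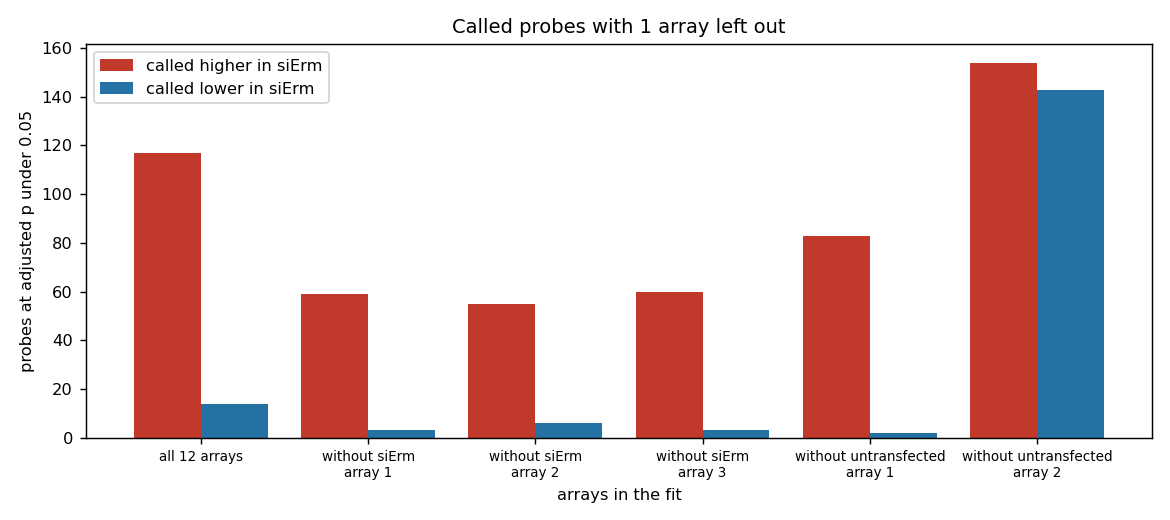
Bars give the number of probes called higher (red) and lower (blue) in siErm cells with all 12 arrays in the fit and with 1 siErm or untransfected array left out. The 14 lower calls of the whole set became 143 without untransfected array 2 and 2 without untransfected array 1.

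Type I interferon genes were among the largest rises. Of 18 genes of interferons and their receptors with a probe, 11 passed the detection filter. The filter counts all 12 arrays, so it admits genes through the transfected arrays where they are high. Of the 11 tested genes, 4 were called higher and 0 lower, against 0.857% of all genes called higher (1 probe per gene) and 0.079% lower. The median log2 change of the list was 0.41 against -0.07 over all genes, of which 43.9% had an estimate above 0. These shares and the median over all genes are given beside the counts of every list below. The lists were chosen with earlier results of these data known, so their counts are descriptions and not tests. Ifnb1, interferon beta, had signals of 15.8 and 5.57 on the untransfected arrays and 753, 244 and 264 on the siErm arrays. Every siErm array was far above both untransfected arrays, and the gene rose 38.9-fold (log2 change 5.28 ± 0.78 SE, adjusted p = 0.0105, limma). Its promoter window is the one above with a single NF-kB match.

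The interferon alpha genes are a cluster of near-identical genes, and a probe may read more than 1 of them. Ifna4 gave 2.93 and 0.62 in untransfected cells and 92.0, 30.0 and 49.1 in siErm cells, a 38.1-fold rise (log2 change 5.25 ± 0.74 SE, adjusted p = 0.00836, limma). Ifna2 rose from 1.49 and 1.58 to 36.6, 17.0 and 23.4, and Ifna12 from 2.08 and 0.81, detected on no untransfected array, to 27.9, 13.8 and 15.3, at least 13.9-fold. In each of these genes siErm array 1 was the brightest, and no untransfected array reached the lowest siErm array. The receptor subunit genes were not called. The calls of Ifnb1, Ifna4 and Ifna12 were kept whichever of the 5 arrays was left out, and that of Ifna2 was lost without untransfected array 1 (adjusted p = 0.0722). The log2 change of Ifnb1 was 6.03 without untransfected array 1 and 4.53 without array 2, that of Ifna4 6.37 and 4.13, and that of Ifna12 4.48 and 3.12.

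**Figure D3:**
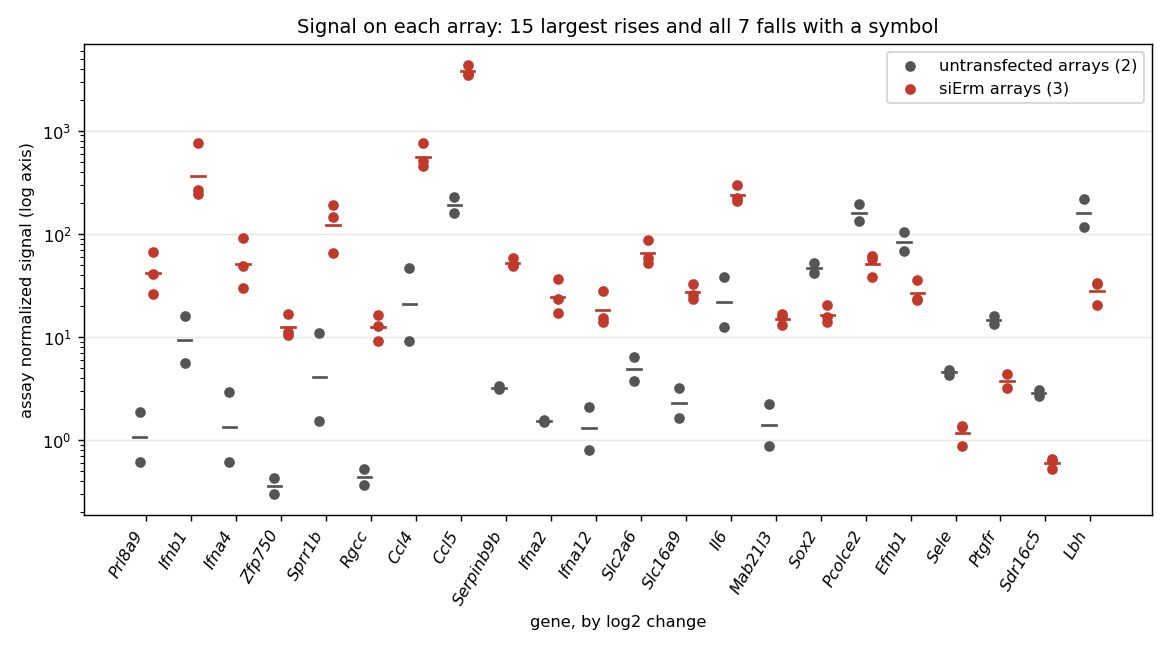
Signal on each array (log axis) for the 15 largest called rises and all 7 called falls with a gene symbol, ordered by log2 change. Grey points are the 2 untransfected arrays, red points the siErm arrays (Ptgfr was measured on 2 of the 3) and short lines the geometric means, and in every gene all red points lie on one side of the grey ones.

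The genes that sense nucleic acids and relay the signal were not called. Of 12 tested sensors and adaptors 0 passed in either direction, with a median log2 change of 0.50. Ikbke, a kinase that activates interferon regulatory factors, gave 11.3 and 17.9 in untransfected and 38.1, 81.1 and 57.4 in siErm cells (log2 change 1.98, adjusted p = 0.0558, limma). The regulatory factor Irf7 gave 77.5 and 121 against 300, 249 and 319, and the endosomal double-stranded RNA receptor Tlr3 gave 8.23 and 22.6 against 31.7, 37.8 and 46.3. The arrays of these 3 genes did not overlap between groups, which held upward for 11.6% of all tested probes, and the adjusted p was 0.676 for Irf7 and 0.67 for Tlr3. Tlr2, a receptor for bacterial lipoproteins on the cell surface, did rise, from 23.6 and 13.9 to 104, 145 and 152 (7.26-fold, log2 change 2.86 ± 0.37 SE, adjusted p = 0.00493, limma), and kept its call with any array left out.

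Downstream of the receptor, 1 of 14 tested interferon signalling genes was called. This was Irf1, an interferon-induced transcription factor, at 68.5 and 82.2 in untransfected and 170, 228 and 189 in siErm cells (2.59-fold, log2 change 1.37 ± 0.25 SE, adjusted p = 0.0324, limma). The call was lost without any 1 siErm array (adjusted p = 0.0759 to 0.126) and without untransfected array 1 (0.175). Usp18, which damps receptor signalling, gave 456 and 370 against 741, 912 and 719, and Irf5 3.82 and 5.71 against 10.4, 20.5 and 9.73. Neither passed the test (adjusted p = 0.248 and 0.163).

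Of the antiviral genes that interferon induces, few passed the threshold. Among 36 tested, 4 were called higher and 0 lower, 21 had an unadjusted p under 0.05 (9.79% of all genes did), 35 had an estimate above 0 (43.9% of all genes did), and the median log2 change was 0.88. Cmpk2, a nucleotide kinase beside viperin, rose from 22.4 and 37.0 to 102, 176 and 139 (4.71-fold, adjusted p = 0.0178, limma). Oasl1, of the oligoadenylate synthetase family, rose from 21.7 and 13.9 to 101, 148 and 124 (7.07-fold), Ifi47, an inducible GTPase, from 42.6 and 98.1 to 292, 321 and 264, and Oas1b from 13.4 and 18.3 to 34.3, 56.0 and 57.6. Oas1c, a related synthetase outside the list, was also called higher (3.40-fold).

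Several well-known members of this list did not pass the test. Isg15, a ubiquitin-like modifier, stood at 1117 and 1512 in untransfected cells and at 1863, 2462 and 1718 in siErm cells (log2 change 0.61, adjusted p = 0.519). Mx2, a GTPase against viruses, gave 33.6 and 32.2 against 95.6, 137 and 136 (adjusted p = 0.0593), and viperin (Rsad2) 70.8 and 41.5 against 487, 491 and 370 (log2 change 3.04 ± 0.76 SE, adjusted p = 0.126). Ifit1, which binds foreign RNA, gave 228 and 172 against 480, 867 and 693 (adjusted p = 0.0822). For these 4 genes every siErm array was above both untransfected arrays, as for 11.6% of all tested probes. Of the 36 genes, 0 were called without siErm array 2, without siErm array 3 or without untransfected array 1, 2 without siErm array 1 and 5 without untransfected array 2. Oasl1 lost its call in all 5 fits (adjusted p = 0.0759 to 0.126), and Ifi47 kept it without untransfected array 2 alone, with a log2 change of 2.78 there and of 1.57 without array 1.

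The large interferon-inducible GTPases, which attack the vacuoles of intracellular parasites, were called in part. All 9 tested guanylate-binding proteins and immunity-related GTPases had estimates above 0, with a median log2 change of 1.52, and 4 were called higher. Tgtp1 went from 96.3 and 127 to 862, 875 and 716 (7.36-fold, log2 change 2.88 ± 0.33 SE, adjusted p = 0.00236, limma) and kept its call with any array left out. Igtp, whose promoter is printed above, went from 207 and 233 to 770, 795 and 605 (3.27-fold, adjusted p = 0.00851). Iigp1 and Gbp2 were called at 4.88-fold and 4.29-fold. Gbp8, outside the list, rose 5.23-fold and kept its call throughout. Without untransfected array 1, 1 of the 9 was called and Igtp was lost (adjusted p = 0.059), and without siErm array 1 or array 2 it was 2 of the 9.

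Antigen presentation had a single called gene. Of 15 tested genes of MHC class I loading and the immunoproteasome, 14 had estimates above 0, the median log2 change was 0.94 and 1 was called. This was Tapbpl, a peptide editor of MHC class I, at 14.3 and 16.5 against 76.6, 83.5 and 63.7 (4.82-fold, log2 change 2.27 ± 0.28 SE, adjusted p = 0.00347, limma), and its call was kept with any array left out. The immunoproteasome subunit Psmb10 gave 88.1 and 210 against 378, 447 and 411 (adjusted p = 0.0712), and the peptide pump Tap1 29.7 and 72.2 against 92.8, 189 and 116 (adjusted p = 0.273). Of 23 constitutive proteasome genes 0 were called, with a median log2 change of 0.09, and the difference between both lists was not tested.

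Chemokine genes were called at several members. Of 23 with a probe, 17 passed the detection filter, which admits genes through the transfected arrays where they are high. Of these 17, 6 were called higher and 0 lower, against 0.857% and 0.079% of all genes. The median log2 change was 2.07, against 1.01 with no filter. Ccl5, a chemoattractant for T cells, rose from 229 and 159 to 3557, 4303 and 3496 (19.7-fold, log2 change 4.30 ± 0.49 SE, adjusted p = 0.00236, limma), and kept its call with any array left out. Ccl4 went from 46.9 and 9.17 to 766, 454 and 506 (27.0-fold, log2 change 4.76 ± 0.79 SE, adjusted p = 0.0197), and its log2 change was 5.93 without untransfected array 1 and 3.58 without array 2. The call of Ccl4 was kept in the first of these fits only (adjusted p = 0.0606 to 0.0748 in the other 4).

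The interferon-induced ligands of the receptor Cxcr3 rose together. Cxcl9 went from 15.2 and 14.3 to 104, 58.4 and 67.8, Cxcl10 from 431 and 396 to 1509, 1732 and 1470, and Cxcl11 from 203 and 236 to 1197, 1280 and 1208. Their fold changes were 5.05, 3.79 and 5.61, and for each of them the lowest siErm array was over 3 times the higher untransfected array. Ccl8 rose 9.01-fold, most on siErm array 1 (62.0, against 22.2 and 30.4 on the others). The monocyte attractants Ccl2 and Ccl7 and the neutrophil attractant Cxcl1 did not pass (adjusted p = 0.0828, 0.0792 and 0.0677), with Ccl2 at 1764 and 494 against 4551, 3715 and 4413. Without untransfected array 1 all 3 were called (adjusted p = 0.0183, 0.0108 and 0.0485), and the log2 change of Ccl2 was 3.09 there and 1.25 without array 2, that of Ccl7 3.84 and 1.46. Of the 17 chemokines, 1 stayed called without siErm array 1 or array 3, 3 without siErm array 2 or untransfected array 2, and 6 were called without untransfected array 1. Cxcl10 lost its call in all 5 fits (adjusted p = 0.0562 to 0.0926), and Cxcl11 kept it without untransfected array 2 alone (0.0405). The log2 change of Ccl8 was 3.87 without untransfected array 1 and 2.47 without array 2, where its call was lost (adjusted p = 0.071).

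Among cytokine genes the calls were few. Of 17 tested interleukins and colony-stimulating factors, 3 were called higher and 0 lower, and the median log2 change was -0.11 (0.28 without untransfected array 1, -0.33 without array 2). Il6, a cytokine of the acute phase, rose from 38.6 and 12.4 to 209, 298 and 221 (10.96-fold, log2 change 3.45 ± 0.55 SE, adjusted p = 0.0156, limma). Csf2, the growth factor of granulocytes and macrophages, rose from 69.3 and 11.4 to 308, 231 and 322 (10.1-fold), and Il15, which sustains natural killer cells, from 12.5 and 16.7 to 53.9, 51.9 and 45.1 (3.47-fold). Both untransfected arrays were far apart for Il6 and Csf2, whose log2 changes were 4.27 and 4.64 without array 1 and 2.64 and 2.03 without array 2. The call of Csf2 was lost without any 1 siErm array (adjusted p = 0.0802 to 0.109), and that of Il15 without siErm array 1 or 2 or untransfected array 1 (0.0591, 0.0536 and 0.0915). The call of Il6 was kept without siErm array 1 and without untransfected array 1, and was lost in the other 3 fits (adjusted p = 0.0533 to 0.0648).

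Il11 did not pass, at 1796 and 692 in untransfected and 328, 465 and 225 in siErm cells (log2 change -1.78, adjusted p = 0.158). Its log2 change was -2.47 without untransfected array 2, where it was called lower (adjusted p = 0.048), and -1.09 without array 1. The granulocyte factor Csf3 gave 838 and 709 against 1900, 2698 and 1551 (adjusted p = 0.0781). Il18bp, a secreted inhibitor of interleukin 18, was called at 5.42-fold, and its log2 change was 1.83 without untransfected array 1 (adjusted p = 0.19) and 3.04 without array 2. Ccrl2, a receptor that presents the attractant chemerin, rose from 7.79 and 4.89 to 62.9, 74.2 and 61.2 (10.7-fold, log2 change 3.42 ± 0.29 SE, adjusted p = 0.000531, limma) and kept its call with any array left out.

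Genes of NF-kB itself stayed below the threshold. Of 20 tested subunits, inhibitors and feedback genes 0 were called in either direction, with a median log2 change of 0.27 (0.57 without untransfected array 1, 0.05 without array 2). The inducible nitric oxide synthase Nos2 was the highest of them, at 0.82 and 7.15 against 46.5, 77.8 and 15.2 (log2 change 3.97, adjusted p = 0.118). It was called without untransfected array 2 (log2 change 5.53, adjusted p = 0.0287), while without untransfected array 1 the change was 2.41. Complement factor B (Cfb), of the alternative pathway, was called at 9.3 and 10.5 against 39.7, 58.1 and 43.5 (4.71-fold, adjusted p = 0.0235, limma), and the call was lost in each of the 5 fits with 1 array left out (adjusted p = 0.0526 to 0.146). Cebpd, a transcription factor of the acute phase, rose 3.31-fold (adjusted p = 0.0351) and lost its call in the same way (0.0549 to 0.19). Ido1, which breaks down tryptophan, rose 6.28-fold (adjusted p = 0.0199) and was not called without siErm array 1, siErm array 2 or untransfected array 1 (adjusted p = 0.0759, 0.0813 and 0.162).

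**Figure D4:**
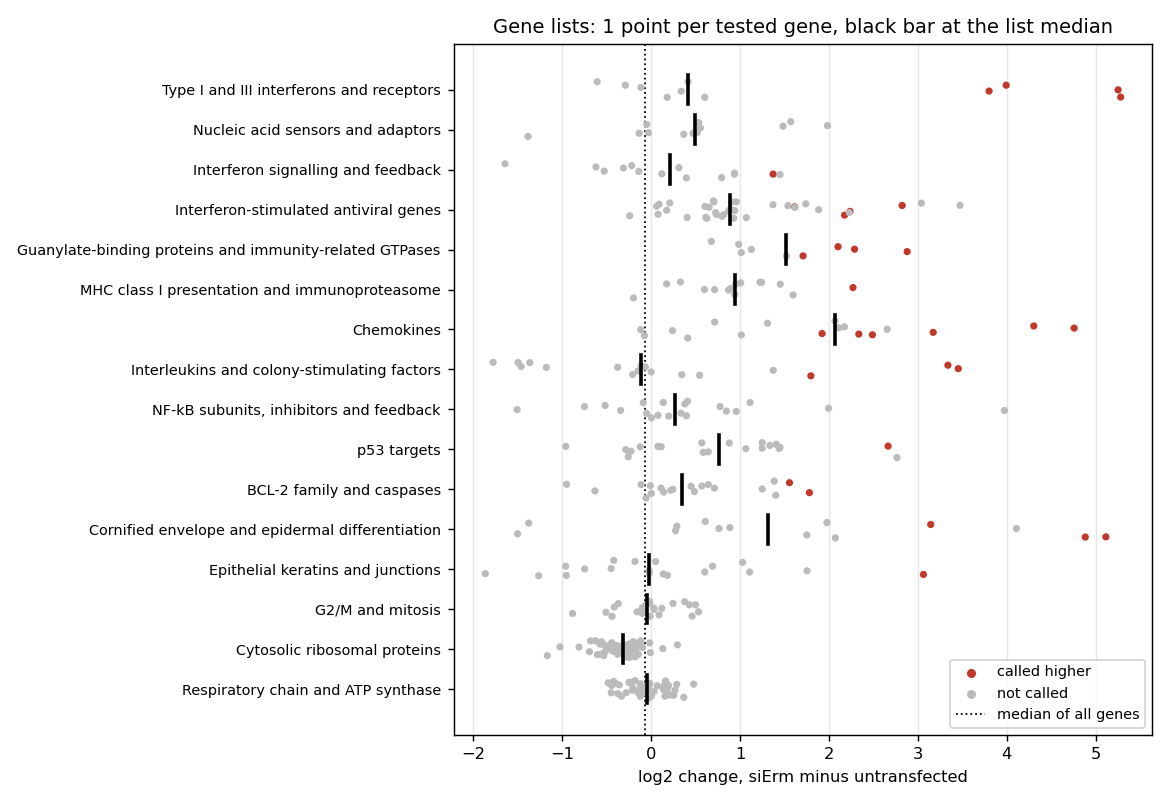
Each point is a tested gene of the list named at the left, placed by its log2 change (siErm minus untransfected), with red for genes called higher, a black bar at the list median and a dotted line at the median of all genes (-0.07). The chemokines (median 2.07) and the GTPases (1.52) lie farthest right, and the cytosolic ribosomal proteins (-0.31) lie left of the line. With no filter on dim probes the medians were 1.01 for the chemokines and 1.32 for the GTPases.

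Of 20 tested p53 targets 1 was called higher, and the median log2 change was 0.76 (1.26 without untransfected array 1, 0.25 without array 2). This was Btg2, an antiproliferative factor, which went from 32.5 and 18.8 to 132, 188 and 155 (6.34-fold, log2 change 2.66 ± 0.33 SE, adjusted p = 0.00353, limma) and kept its call with any array left out. Cdkn1a, the cell cycle inhibitor p21, gave 260 and 263 against 491, 864 and 563 (adjusted p = 0.143). The death receptor Fas gave 3.72 and 4.42 against 39.4, 18.0 and 29.4 (adjusted p = 0.127). Gadd45b, a stress-induced growth arrest gene, rose from 21.9 and 22.9 to 290, 129 and 137 (7.70-fold, log2 change 2.94 ± 0.39 SE, adjusted p = 0.00493) and kept its call throughout. Without untransfected array 1, 4 of the p53 targets were called.

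Of 20 tested genes of the BCL-2 family and the caspases, 2 were called higher. Bcl2l11, the proapoptotic BIM, went from 10.1 and 8.23 to 29.1, 38.1 and 27.7 (3.43-fold, adjusted p = 0.0206, limma). Casp1, which matures interleukin 1 beta, went from 84.6 and 92.4 to 229, 296 and 259 (2.94-fold, adjusted p = 0.0424). Both lost their calls with any 1 of the 5 arrays left out (adjusted p = 0.0567 to 0.0856 for Bcl2l11, 0.071 to 0.196 for Casp1). The protease inhibitors Serpinb9, which blocks granzyme B, and Serpinb9b were also higher. Serpinb9b went from 3.32 and 3.11 to 49.9, 48.5 and 58.0 (16.2-fold, log2 change 4.02 ± 0.34 SE, adjusted p = 0.000531) and was among the 25 genes whose call every fit kept. Serpinb9 rose 3.86-fold and kept its call without untransfected array 2 alone (adjusted p = 0.0391).

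Some genes of the outer skin layers were called higher in these mammary cells. Of 23 genes of the cornified envelope and epidermal differentiation with a probe, 14 passed the detection filter, some through the transfected arrays alone. Of these 14, 3 were called higher and 0 lower, and the median log2 change was 1.32, against 0.76 with no filter. Zfp750, a transcription factor that drives terminal differentiation of keratinocytes, was not detected on either untransfected array (0.3 and 0.43) and gave 10.4, 11.1 and 16.7 in siErm cells, at least 29.6-fold (log2 change 5.11 ± 0.44 SE, adjusted p = 0.000531, limma). Its call was kept with any array left out. The small proline-rich proteins, which are cross-linked into the envelope, followed. Sprr1b went from 1.54 and 10.96 to 189, 144 and 65.4 (29.5-fold, adjusted p = 0.0229), and Sprr2e was at 0.36 and 0.66, undetected, against 5.20, 3.69 and 4.17, at least 8.28-fold (adjusted p = 0.0446).

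Involucrin (Ivl), another envelope protein, gave 1.09 and 0.46 against 12.1, 18.9 and 7.96 (adjusted p = 0.0529), and Sprr1a 82.5 and 124 against 509, 445 and 277 (adjusted p = 0.058). Lce1g, a late envelope gene outside the list, was called at least 6.30-fold higher (adjusted p = 0.0212). The log2 change of Sprr1b was 3.47 without untransfected array 1 (adjusted p = 0.166) and 6.30 without array 2. Sprr2e lost its call in all 5 fits (adjusted p = 0.0553 to 0.276). Of the 14 genes, 1 stayed called without siErm array 1, siErm array 2 or untransfected array 1, and 2 without either of the other arrays.

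Among keratins and junction genes, 1 of 19 was called. Krt16, a keratin of stressed and wounded epidermis, went from 5 and 9.39 to 65.7, 59.2 and 48.2 (8.35-fold, log2 change 3.06 ± 0.52 SE, adjusted p = 0.0219, limma), and the call was kept only without untransfected array 2 (adjusted p = 0.029, against 0.0643 to 0.178 in the other 4 fits). The keratins of simple epithelia on the list, Krt7, Krt8, Krt18 and Krt19, did not pass the test. Krt18 was at 501 and 312 against 113, 132 and 85.6 (log2 change -1.87, adjusted p = 0.0609), and Krt8 at 1173 and 1468 against 725, 744 and 565 (adjusted p = 0.316). Krt7 had a log2 change of 1.75 (adjusted p = 0.156) and Krt19 of 0.18 (adjusted p = 0.921). The 12 luminal marker genes on the array, in a sum made up mostly of the Krt8 and Krt18 signals, came to 1815 and 1884 in untransfected cells and to 743 to 1004 in siErm cells. Of 7 tested luminal markers 3 had estimates above 0 and 4 below. The 7 basal markers summed to 30.0 and 21.2 against 27.2 to 56.8, so the groups overlapped. Only 2 of them were tested, Krt14 (13.7 and 13.0 against 39.4, 17.2 and 35.2) and Krt17 (12.9 and 4.92 against 10.1, 7.31 and 7.62), and neither was called. The part of these marker differences in the other results was not tested.

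Further large rises fell in no single list. Rgcc, a regulator of cell cycle and complement response, was undetected at 0.52 and 0.37 and gave 16.4, 9.24 and 12.7, at least 28.4-fold (log2 change 4.83 ± 0.74 SE, adjusted p = 0.0127, limma). Prl8a9, of the prolactin family of the rodent placenta, had the largest rise of any probe with a symbol, from 0.61 and 1.86 to 26.4, 66.4 and 41.1 (39.1-fold, log2 change 5.29 ± 0.87 SE, adjusted p = 0.0195). Its signals were low on both untransfected arrays and it was detected on 1 of them, so the size of the rise is uncertain. It was 1 of 6 tested family members and the only one called. The log2 change of Prl8a9 was 4.48 without untransfected array 1 (adjusted p = 0.166) and 6.09 without array 2. Rgcc was not called without siErm array 1, siErm array 3 or untransfected array 1 (adjusted p = 0.0549, 0.0521 and 0.0688).

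Among the other large rises, Slc2a6, a transporter of the glucose transporter family, went from 3.74 and 6.39 to 59.0, 52.7 and 87.2 (13.2-fold, log2 change 3.73 ± 0.41 SE, adjusted p = 0.00228, limma), the 1 call among 16 glycolysis and glucose transport genes. Slc16a9, of the monocarboxylate transporter family, went from 1.64 and 3.20 to 33.0, 23.6 and 25.4 (11.8-fold). Pdk4, a kinase that shuts pyruvate dehydrogenase, went from 6.37 and 16.2 to 94.2, 85.4 and 73.6 (8.25-fold), with a log2 change of 2.37 without untransfected array 1 and 3.72 without array 2. Mab21l3 rose from 2.25 and 0.87 to 13.1, 16.6 and 15.5 (10.7-fold), with 4.11 and 2.73 in the same fits. All 4 genes kept their calls with any array left out.

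The genes of this paragraph were chosen after their values were seen, because they kept their calls in all 5 fits. Nppb, the precursor of the heart hormone brain natriuretic peptide, rose 10.0-fold (6.34 and 4.22 against 55.8, 52.1 and 47.6). Ms4a4d rose 8.60-fold, the phospholipase Pnpla7 8.66-fold, the kinase inhibitors Inka1 and Inka2 at least 6.56-fold and 3.74-fold, and the histone genes H2bc4 and H1f3 6.15-fold and at least 6.19-fold. Inka1 and H1f3 were not detected on either untransfected array. Inka2 has a second probe, which was not called (log2 change 1.17, adjusted p = 0.14). Histone probes can read several near-identical histone genes, so the member that rose is uncertain.

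The 7 genes with a symbol that were called lower do not share a list. Lbh, a transcription cofactor of limb and heart development that is also known in mammary basal cells, was at 219 and 116 in untransfected and 33.6, 32.5 and 20.6 in siErm cells, a 5.64-fold fall (log2 change -2.50 ± 0.43 SE, adjusted p = 0.0235, limma). Sdr16c5, a retinol dehydrogenase, was at 3.09 and 2.65 and not detected on any siErm array (0.66, 0.53 and 0.63), at least 4.74-fold lower (log2 change -2.24 ± 0.28 SE, adjusted p = 0.00441). Sox2, a stem cell transcription factor, went from 41.6 and 52.3 to 13.9, 20.6 and 15.7 (2.83-fold lower), and Efnb1, the ephrin B1 ligand, from 68.5 and 104 to 22.7, 35.3 and 23.4 (3.17-fold lower).

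Pcolce2, an enhancer of procollagen processing, was at 194 and 132 against 57.6, 61.7 and 38.5 (3.10-fold lower). Ptgfr, the receptor of prostaglandin F2 alpha, was at 13.3 and 16.01 against 3.23 and 4.40, with siErm array 2 failed and left out. Sele, the endothelial adhesion molecule E-selectin, was at 4.29 and 4.80 against 0.88, 1.36 and 1.35. Ptgfr and Sele were not detected on the siErm arrays and were at least 3.88-fold and 3.87-fold lower. Of the 7, Sdr16c5 alone kept its call with any array left out. Sox2, Ptgfr and Sele lost theirs in all 5 fits (adjusted p = 0.0584 to 0.151, 0.063 to 0.24 and 0.0533 to 0.088), Lbh and Pcolce2 kept theirs without untransfected array 2 alone (adjusted p = 0.0224 and 0.0358), and Efnb1 without siErm array 2 alone (0.0418).

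Several genes had lower estimates that did not pass the test. The Notch ligand Dll4 was at 26.8 and 21.1 against 1.89, 10.9 and 3.73 (adjusted p = 0.0985), and the Notch feedback gene Nrarp at 122 and 53.9 against 22.9, 29.1 and 17.6 (adjusted p = 0.0717), while 0 of 16 tested Notch genes were called. Without siErm array 2 Dll4 was called (log2 change -3.16, adjusted p = 0.0139), as was Nrarp without untransfected array 2 (log2 change -2.42, adjusted p = 0.0239). The desaturase Scd1 was at 15.8 and 14.01 against 3.85, 1.57 and 1.22 (log2 change -2.94, adjusted p = 0.0677). The arginine methyltransferase Prmt1 was at 739 and 456 against 161, 311 and 132 (adjusted p = 0.11). Of 43 pathway lists, 25 held 0 genes called by limma, among them DNA replication (21 tested), G2/M and mitosis (26), heat shock chaperones (15), RNA interference machinery (11) and the respiratory chain (57). Of 56 tested cytosolic ribosomal protein genes 0 were called, 54 had estimates below 0 and 2 above 0, where 43.9% of all genes were above 0. The median log2 change was -0.31 as deposited and -0.11 after quantile normalization.

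For several metabolic stress genes the untransfected arrays stood apart from each other. The targets of ATF4, the transcription factor of amino acid shortage, had a median log2 change of -0.57 over 21 genes, which was 0.19 without untransfected array 1 and -1.86 without array 2. Chac1, which breaks down glutathione, was at 1070 and 113 on untransfected arrays 1 and 2 and at 122, 139 and 116 in siErm cells. Fgf21, a stress hormone, was at 338 and 5.89 against 1.31, 1.07 and 3.47, and Atf3, a stress transcription factor, at 453 and 22.7 against 408, 346 and 260. None of the 3 was called, but without untransfected array 2 Chac1 was called lower (log2 change -3.09, adjusted p = 0.0066) with Fgf21 (-7.64, adjusted p = 0.002), and 7 of the 21 genes were. Without untransfected array 1, Atf3 was called higher (log2 change 3.87, adjusted p = 0.00383).

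Cholesterol synthesis showed the opposite order of the untransfected arrays. The median log2 change over 15 genes was 0.01, and it was -1.08 without untransfected array 1 and 1.22 without array 2. Idi1, an isomerase of the pathway, was at 14.3 and 258 on untransfected arrays 1 and 2 and at 80.1, 131 and 93.1 on the siErm arrays, and it was called without untransfected array 2 (log2 change 2.79, adjusted p = 0.0287). Fgf21 and Chac1 are named by the rule for lists, and Atf3 and Idi1 were chosen after their values were seen. Of the 21 ATF4 targets 1 was called with all arrays. This was Cbs, an enzyme of cysteine synthesis, from 1.91 and 2.67 to 8.92, 6.46 and 12.3 (3.94-fold, adjusted p = 0.0235, limma), which was not called without siErm array 1, siErm array 3 or untransfected array 1 (adjusted p = 0.0824, 0.0893 and 0.169).

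The targeted gene was near background. Etv5 gave 23.7 and 1.05 on the untransfected arrays and 1.77, 0.54 and 0.51 on the siErm arrays, and of these 5 it was detected on untransfected array 1 alone. The siErm array 1 value lay above that of untransfected array 2, so the groups overlapped. The difference did not pass (log2 change -2.66 ± 1.03 SE, adjusted p = 0.395, limma). The 2-sided exact permutation p was 0.4, where 0.2 is the smallest that this test can give with 10 splits of 3 against 2 arrays. Without untransfected array 2 the log2 change was -4.91 (adjusted p = 0.0146), and without untransfected array 1 it was -0.42. In siCtrl cells Etv5 gave 2.77, 1.16 and 0.99. The arrays therefore give no firm measure of the knockdown. Etv4 gave 40.7 and 41.8 against 26.7, 45.7 and 32.4 (log2 change -0.28 ± 0.29 SE, adjusted p = 0.795), and Etv1 10.1 and 10.3 against 7.74, 10.4 and 3.74 (adjusted p = 0.85). For both the groups overlapped, with 2-sided exact permutation p = 0.6.

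Cells given the other siRNAs were compared with the siErm cells directly. Against siCtrl cells 0 of 16724 probes (0.0%) were called by limma, the smallest adjusted p was 0.902, and 339 probes (2.03%) had an unadjusted p under 0.05. Of the 131 probes called against untransfected cells, 5 had an unadjusted p under 0.05 in that test. Over the 131 the median size of the log2 difference between siErm and siCtrl was 0.24, with a median SE of 0.35, beside 0.21 over all tested probes. Among these 5 were the interferon alpha genes Ifna2 and Ifna12, higher in siErm than in siCtrl cells before adjustment. Ifna2 differed by 1.44 ± 0.52 SE and Ifna12 by 1.23 ± 0.50 SE on the log2 scale, and for both the adjusted p was 0.9999 in limma.

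In simulated data with these group sizes, changes of 2 on the log2 scale between siErm and untransfected cells were called for 50% of probes and changes of 1 for 4%. Smaller differences between these groups would therefore mostly be missed. Recovery was not scored for siErm against siCtrl or siPea3 cells, so these rates do not apply to those comparisons. The changes of siCtrl and siPea3 cells against untransfected cells rest on the same 2 untransfected arrays as those of siErm cells and are given only side by side. Ifnb1 changed by 5.28 in siErm, 4.42 in siCtrl and 5.17 in siPea3 cells on the log2 scale, and Ccl5 by 4.30, 4.04 and 3.65. For Zfp750 the values were 5.11, 4.86 and 6.70, for Tgtp1 2.88, 2.94 and 2.47, and for Lbh -2.50, -2.57 and -3.12. Prl8a9 changed by 5.29, 5.30 and 2.58, and Oasl1 by 2.82, 3.15 and 1.07.

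**Figure D5:**
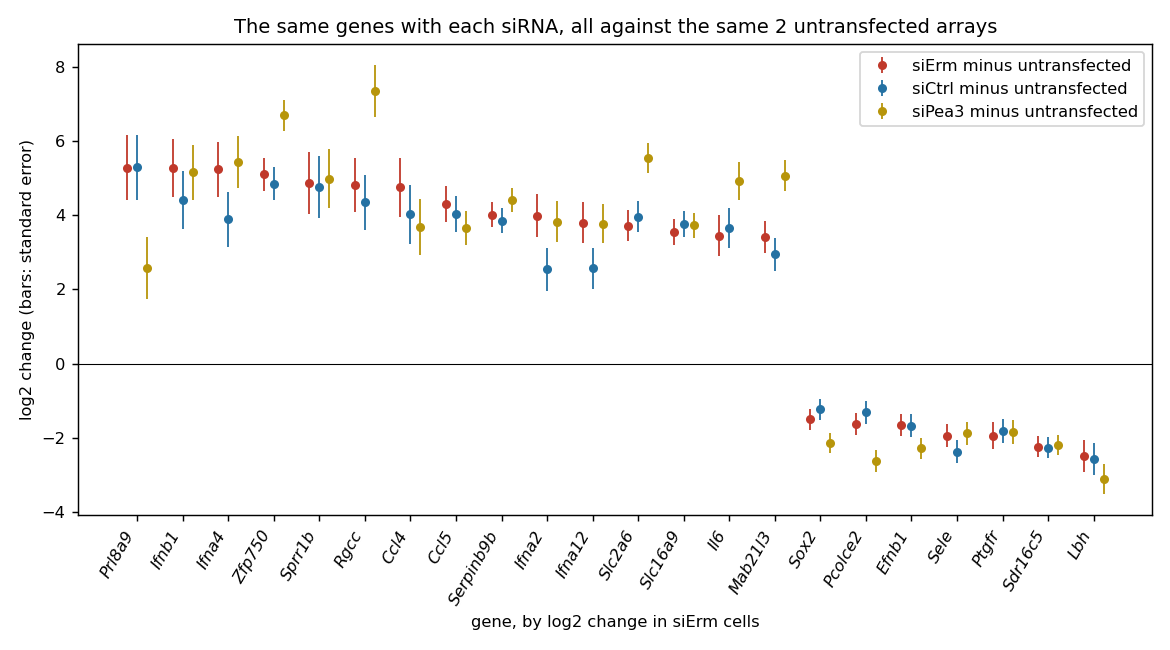
Log2 change with its standard error for the 15 largest rises and the 7 falls of siErm cells, for siErm (red), siCtrl (blue) and siPea3 (yellow) cells, all against the same 2 untransfected arrays. All 22 genes have the same sign with each siRNA, which the shared arrays favour, and siPea3 lies apart from the others for Prl8a9 (2.58) and Rgcc (7.35).

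Against siPea3 cells 1 probe (0.00598%) was called and 1722 (10.3%) had an unadjusted p under 0.05. The probe has no gene symbol (ID 888990) and gave 30.2, 19.8 and 25.2 in siErm cells and 112, 154, 153 and 178 in siPea3 cells, with 3.04 and 4.71 in untransfected cells. The groups did not overlap, and siErm cells were lower by a log2 difference of -2.58 ± 0.26 SE (adjusted p = 0.0131, limma). Of the genes described above, Prl8a9 was 2.71 and Oasl1 1.75 higher on the log2 scale in siErm than in siPea3 cells, Rgcc was lower (log2 difference -2.53) and so was Slc2a6 (-1.83), and none of the 4 was called. The call of the probe was lost when siErm array 2 or 3, or siPea3 array 2, 3 or 4 was left out, with 0 probes called in those fits.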

How the data were processed

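RNA of 12 cultures was measured on 1-colour Applied Biosystems AB1700 arrays with chemiluminescent detection, per the series' design text and the labels. The authors deposited for each probe an intensity, named assay normalized signal in the file headers, a coefficient of variation, which is a ratio of noise to signal, and a status flag. Which software made the signals, and with what background correction and scaling, is not given in the sources used here, nor is a scan or hybridisation batch. The value table of the whole series held the same intensities, equal in all 392662 filled cells and blank in 3482, where the flag marked a failed measurement.

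Titles gave each sample its group. The treatment field names siRNA transfection for the untransfected samples as well, while the titles and the design text do not. Signals with a flag over 4096 were left out as failed. Detection asked for a signal at least 3 times its noise (1 over the coefficient of variation), and 16724 of 33012 probes, detected on at least 2 of 12 arrays and measured in each group, were tested. Log2 signals of all 12 arrays were fitted with limma 3.58.1 in R 4.3.3 (lmFit, eBayes), with 1 coefficient per group and no covariates, and p values were adjusted by Benjamini-Hochberg over all tested probes. Calls were made at an adjusted p under 0.05. Where a group was not detected on any array, the fold is given as a lower bound. Of all probes, 14411 carried 1 gene symbol in the platform's annotation, 247 several and 18354 none. A gene was represented by its brightest probe, which left 8864 genes.

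Genes were named by rule: the PEA3 group, the 15 largest rises and the 15 largest falls among called probes with 1 symbol and separate arrays, and up to 6 members of each list with the smallest p. The members, lists and rules were chosen with earlier results of these data known. Sequences are from RefSeq. The fit was tested on simulated data, where 0.0303% of unchanged probes were called. Same-numbered siErm and siCtrl arrays, numbered in their titles, deviated together from their group means (r = 0.275, 0.312 and 0.225), and the fit with that number as a block also called 0 probes between them.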

Additional observations from a re-analysis of the deposited data

Results flagged for a closer look

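The probe without a gene symbol that has the ID 888990 was flagged because siErm and siPea3 cells differed by a test of the difference itself, with a log2 difference of -2.58 (siErm minus siPea3, adjusted p = 0.0131, limma). Its signal was 3.04 and 4.71 in untransfected cells, 19.8 to 30.2 in siErm cells and 112 to 178 in siPea3 cells, and the siCtrl arrays gave 24.7, 30.3 and 26.4. All 4 siPea3 arrays lay above all 3 siErm and all 3 siCtrl arrays. The number of probes called between siErm and siPea3 cells was 1, and it ranged from 0 to 13 over the alternatives run.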

How the results depend on the processing

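The 131 calls in siErm against untransfected cells (117 higher, 14 lower) became 16 (16 higher, 0 lower) with only both compared groups in the fit, 82 (3 lower) without the siCtrl arrays, 206 (186 higher) after quantile normalization, 212 (182 higher, 30 lower) with scaling over detected probes, 83 (4 lower) with no filter on dim probes, and 218 (183 higher, 35 lower) with probes detected on all arrays of 1 group. Lower calls numbered 9 with median scaling, 35 with signals floored at 1, 6 with array weights and 7 with adjustment over probes with 1 symbol, and higher calls 176 with an intensity trend. The replicate block gave 70 calls (65 higher, 5 lower). Same-numbered siErm and untransfected arrays share only a number (r = 0.108 and 0.053 in 2 pairs). Leaving out 1 array gave 61 to 297 calls, 55 to 154 higher and 2 to 143 lower, and without siPea3 array 2, an alternative chosen after seeing the data, there were 136. None of the 131 probes changed sign in any of these fits. For fits that only left arrays out this was fixed in advance, because the arrays of both groups did not overlap for any of the 131. The share of higher calls, 89.3%, was 51.9% without untransfected array 2.

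Calls against siPea3 cells numbered 0 with the replicate block, 13 after quantile normalization, 5 with scaling over detected probes and 0 to 2 with 1 array left out, the last added after seeing the data. Against siCtrl cells 0 were called in every fit run. The log2 change of Etv5 ranged from -4.91 to -0.42 with 1 array left out. Without untransfected arrays 1 and 2 in turn, that of Atf3 was 3.87 and -0.45, that of Chac1 0.14 and -3.09, and that of Idi1 -1.38 and 2.79. Of the values for named genes under an alternative, 1713 kept direction and side of the threshold, 493 lost the call, 101 gained it and 3 reversed. The cause was not tested.

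With 2 untransfected arrays, the 2-sided exact permutation test used here cannot go below p = 0.2 for a single gene, and calls rest on the spread pooled over 4 groups. Etv5 and several called genes lie near background, where only a bound on the fold can be given.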
